A study of Homo sapiens with 8 samples.

Results

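Human miRNAs are numbered in the order in which they were registered, so a high number marks an entry that was found late, mostly by deep sequencing. In the small RNA libraries of H1299 lung carcinoma cells examined here, 408 of the 945 listed miRNAs carried a number of 1000 or more. The 79 of them whose mean normalised read count was at least 1 in any of the 3 deposited tables are described below. They were chosen by their number and by this mean over the libraries of a table, so that they were detected is not a finding. Just inside the threshold were miR-3145-3p and miR-1273h-5p, at a highest table mean of 1.00 and 1.02, and just outside it were miR-4789-3p and miR-6742-3p, at 0.998 and 0.988.

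H1299, a long-established cell line from a lymph node of a non-small cell lung carcinoma, makes no p53. H1299/EV cells, which carry an empty vector, were compared with H1299/R273H cells, which stably express p53 with the R273H missense mutation from a pCMV vector. The cells of both lines were left untreated or were treated with etoposide, a topoisomerase poison that breaks DNA, for 24 h, and each of the 4 groups held 2 small RNA libraries, 8 in all. The dose of etoposide is given as 10 µM in one protocol field of the labels and as 10 mM in another. Colonies that resisted G418 after transfection gave rise to the R273H line, whereas EV cells were received from a different laboratory, already infected with the empty vector, so p53 status cannot be told apart from the history of either line. The study calls the replicates biological, without stating how the cultures were kept apart, and the p-values measure the spread between these libraries.

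A mature miRNA is a short RNA cut from 1 arm of a hairpin, and it guides an Argonaute protein to target mRNAs mainly through its seed, bases 2 to 8. Abundant, conserved miRNA families were found first, while many late entries are low in most tissues, lie in introns or exons of host genes, or come from loci that also make another RNA. Among the latter are hairpins opposite an older miRNA, repeats, and snoRNA, tRNA and rRNA genes, and reads of such loci can belong to either RNA.

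The mature sequences of the miRNAs on which the results turn are given here, from RefSeq (GRCh38.p14), 5′ to 3′, with the seed in capitals. The first 2 are the arms of the most abundant hairpin, the next 2 are other abundant members, and the remaining 8 differed between the lines in at least 1 comparison.
miR-1307-5p: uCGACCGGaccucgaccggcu
miR-1307-3p: aCUCGGCGuggcgucggucgug
miR-4521: gCUAAGGAaguccugugcucag
miR-3662: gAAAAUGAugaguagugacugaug
miR-3192-3p: cUCUGAUCgcccucucagcuc
miR-3180-3p: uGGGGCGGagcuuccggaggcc
miR-7974: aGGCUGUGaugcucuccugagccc
miR-1303: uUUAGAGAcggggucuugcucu
miR-3074-5p: gUUCCUGCugaacugagccag
miR-3529-3p: aACAACAAaaucacuagucuucca
miR-1267: cCUGUUGAaguguaaucccca
miR-1296-3p: gAGUGGGGcuucgacccuaacc
None of these 12 seeds is shared with another listed miRNA whose name matched a RefSeq sequence. Listed miRNAs without such a match could not be checked.

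The libraries held 234545 to 579367 reads on counted features, and 1.82% to 9.18% of a library lay on tRNA, rRNA or adapter features. The deposited values are reads divided by a size factor for each library, and all of them came out as whole reads, so the level in all 8 libraries is given as RPM (reads divided by the miRNA reads of the library and multiplied by 1000000), while fold changes come from the normalised counts or from edgeR. These scales differ between libraries. A miRNA at 1000 RPM had a normalised count of 346, 378, 203 and 356 in the 2 untreated and 2 treated EV libraries, and of 601, 480, 418 and 259 in the corresponding R273H libraries in their own table. Of the miRNAs that mark other cell types, summed per library, the erythroid ones (2 of 3 listed) reached 27.6 to 103 RPM in EV and 23.7 to 46.7 RPM in R273H. The leukocyte miRNAs (2 of 4 listed) stayed at or under 14.1 RPM, liver miR-122-5p at or under 32.9 RPM, the 3 muscle miRNAs at 4.70 RPM or less in EV and 59.0 RPM or less in R273H, and the 5 epithelial miR-200 family and miR-205 entries at or under 36.9 RPM. Their part in the differences between lines was not tested.

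Late-numbered miRNAs were low in H1299 cells. A mean normalised count of at least 1 was reached by 19.4% of the 408 miRNAs numbered 1000 or more and by 70.6% of the 537 older ones. A mean of at least 3, the minimum for testing, was reached by 8.09% and 59.6%, and a mean of at least 100 by 4 late and 106 older miRNAs. The median over each class of the highest table mean was 0.398 and 6.01. The threshold on level was not applied to these classes.

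Among the 79 members, 7 averaged at least 100 RPM over the 8 libraries, 54 averaged under 10 RPM, and 45 had fewer than 20 reads in all libraries together. Only 23 had a read in every library. The number of members with a read ranged from 45 to 71 per library. Since 1 read corresponded to 1.86 to 4.70 RPM, most of these miRNAs were measured by a handful of reads. The 46 members under the minimum for testing in every comparison are described by their reads alone.

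The most abundant member was miR-1307-5p, which ranked 47 among all miRNAs. Its hairpin lies at chr10:105154010-105154158 (GRCh37, minus strand) over an exon of ATP5MK, a small subunit of the mitochondrial ATP synthase. The miRNA was read at 2311 and 2314 RPM in untreated EV, 2352 and 1852 RPM in treated EV, 465 and 1143 RPM in untreated R273H, and 1030.2 and 1574 RPM in treated R273H cells. Every EV library was above every R273H library, with a mean of 2207 ± 237 RPM in EV and 1053 ± 457 RPM in R273H (SD, n = 4).

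miR-4521 followed with 1108 and 733 RPM in untreated EV, 610 and 939 RPM in treated EV, 456 and 952 RPM in untreated R273H, and 661 and 613 RPM in treated R273H. miR-3607-5p, an entry that overlaps a C/D box snoRNA, reached 1130 and 676.5 RPM in untreated EV and 723 and 1071 RPM in treated EV. In R273H it was read at 106 and 809 RPM in untreated and at 839 and 462 RPM in treated libraries. The levels of both miRNAs overlapped between the lines, and the first untreated R273H library held the lowest value of each. These 3 miRNAs took 51.9% to 76.8% of the members' reads in a library.

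miR-3662 (251 ± 66.9 RPM), miR-1180-3p (170 ± 95.4), miR-3074-5p (167 ± 77.6), miR-1307-3p (163 ± 100.2) and miR-3180-3p (82.0 ± 62.2) came next (mean and SD over n = 8 libraries). The order among miR-1180-3p, miR-3074-5p and miR-1307-3p lies well within their spread. miR-1180 lies at chr17:19247819-19247887 in an intron of B9D1, which encodes a protein of the ciliary transition zone. miR-1301-3p (58.9 ± 30.8 RPM), from chr2:25551509-25551590 in an intron of the DNA methyltransferase gene DNMT3A, and miR-1285-3p (54.2 ± 24.1 RPM) completed the 10 highest.

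**Figure D1:**
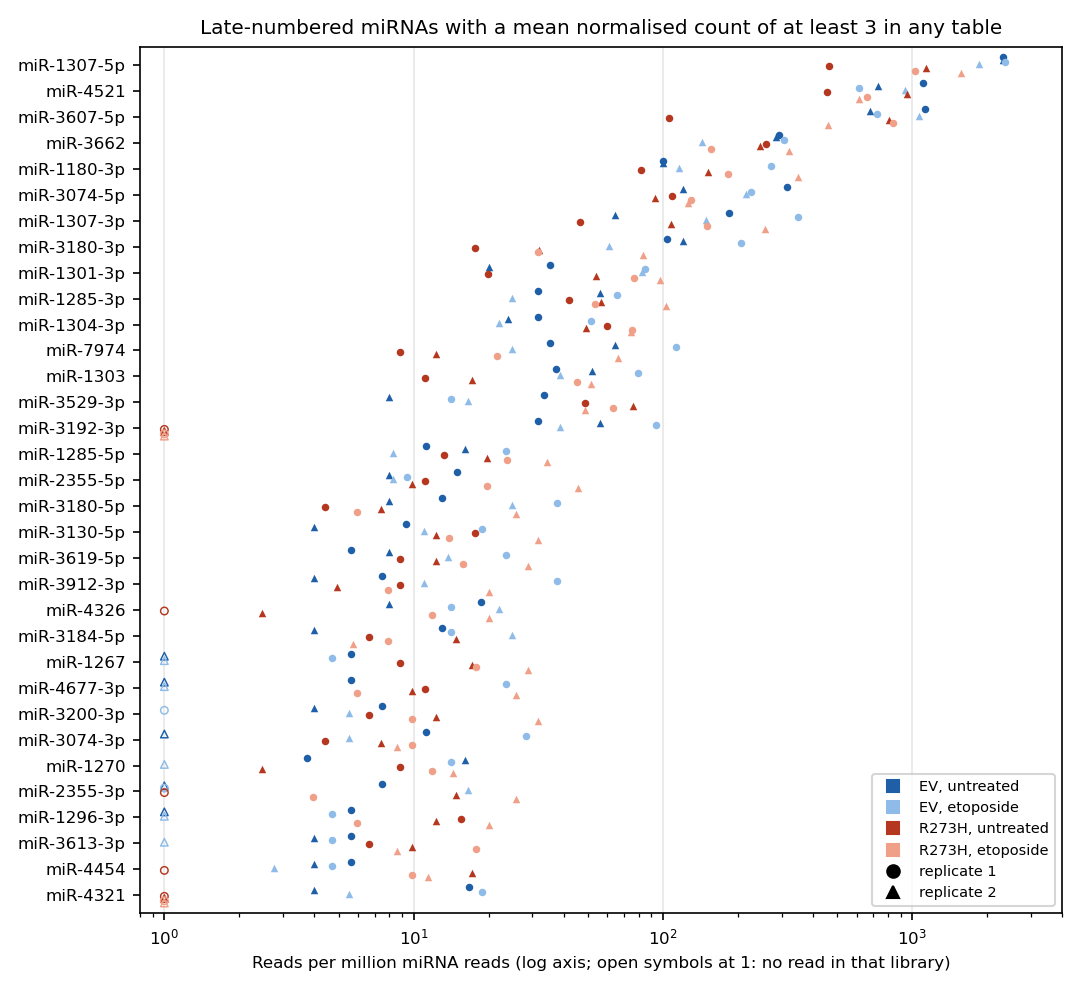
Level of each of the 33 members that reached a mean normalised count of 3 in any table, in RPM on a log axis, with 1 symbol per library (colour, group; shape, replicate; open symbols at 1, no read). miR-1307-5p lay at 1852 RPM or more in all 4 EV libraries and at 1574 RPM or less in all 4 R273H libraries. miR-3192-3p had no listed read in R273H.

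Summed over the 79 members, the share of miRNA reads was 0.608% and 0.491% in untreated EV and 0.608% and 0.503% in treated EV cells. It was 0.198% and 0.412% in untreated R273H and 0.388% and 0.487% in treated R273H cells. All 4 EV libraries were above all 4 R273H libraries, and the first untreated R273H library was far below the rest. EV libraries averaged 0.552 ± 0.0642% and R273H libraries 0.371 ± 0.123% (SD, n = 4), which differ by -0.181 percentage points. An exact two-sided permutation test within treatment gave p = 0.0556, the smallest value it can give (2 libraries against 2 cannot go below p = 0.3333). Without miR-1307-5p the difference was -0.0659 points (exact permutation p = 0.278). The share of counted reads that are not miRNA moved in the same direction, at 3.98% to 9.18% in EV and 1.82% to 4.82% in R273H, and its part in this difference was not tested.

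To ask which late-numbered miRNAs differed with mutant p53, untreated R273H libraries were compared with untreated EV libraries. Of the 24 members with a mean normalised count of at least 3, 9 differed at an unadjusted p under 0.05 and at least 2-fold (37.5%), 3 being higher and 6 lower in R273H. Over all 304 miRNAs tested, 27.3% did so, 16.4% higher and 10.9% lower. At a Benjamini-Hochberg adjusted p under 0.05, 1 member was higher and 4 were lower, against 20.4% of all miRNAs tested. The median log2 fold change was -0.04 over the members and 0.10 over all. The libraries of the lines did not overlap for 6 members that were higher and 6 that were lower, against 34.9% and 26.6% of all. edgeR on the recovered reads of the same libraries called 0 members higher and 6 lower, so the number of higher members depends on the tool. There miR-3529-3p, miR-1296-3p and miR-1267 kept log2 fold changes of 1.27, 1.75 and 1.61 (edgeR, unadjusted p = 0.0565, 0.076 and 0.0983). limma with equal upper quartiles called 4 higher and 6 lower.

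The largest difference was that of miR-3192-3p, from chr20:18451259-18451335 (GRCh37, plus strand), in an intron of POLR3F, which encodes a subunit of RNA polymerase III. It had 17 and 14 reads in untreated EV and 20 and 14 reads in treated EV libraries. The 4 R273H libraries held 366537 to 530989 counted reads. The untreated ones held no read of miR-3192-3p. It is not listed in the table of the R273H libraries alone, so no read was assumed in the treated ones. Against a floor of 3 reads per library, its RPM was at least 6.26-fold lower in untreated R273H cells (limma, log2 fold change -4.11 ± 0.65 (SE) on log2(normalised count + 1), adjusted p = 0.000315).

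miR-1307-5p fell from normalised counts of 859 and 921 in EV to 215 and 413 in R273H libraries (log2 fold change -1.57 ± 0.33, adjusted p = 0.00314). This log2 fold change was -1.10 without the first untreated R273H library and -2.04 without the second. miR-3180-3p, whose sequence is encoded by more than 1 hairpin, fell from 38.8 and 47.8 to 8.21 and 11.6 (log2 fold change -2.03 ± 0.47, adjusted p = 0.0052). These miRNAs and miR-3192-3p passed p under 0.05 and 2-fold whichever of the 4 libraries was left out.

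miR-7974 had normalised counts of 13.2 and 25.5 in EV and of 4.10 and 4.44 in R273H cells, with a log2 fold change of -1.88 ± 0.55 (adjusted p = 0.0228). Without the first or the second R273H library its unadjusted p was 0.0602 and 0.0537. miR-1303, a repeat-derived entry at chr5:154065336-154065421 in an intron of LARP1, which encodes an RNA-binding protein, was at 13.9 and 20.7 in EV and at 5.13 and 6.22 in R273H cells, a log2 fold change of -1.43 ± 0.53. It did not pass after adjustment (adjusted p = 0.0652) and fell short without the second EV library or without either R273H library (-1.16, -1.31 and -1.55, unadjusted p = 0.124, 0.0826 and 0.0568).

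miR-3607-5p was at 420 and 269 in EV and at 49.3 and 292 in R273H, so the lines overlapped. Its log2 fold change of -1.47 ± 0.53 (adjusted p = 0.0563) rested on the first R273H library and was -0.20 without it (unadjusted p = 0.64). That same library held the lowest member share and the lowest miR-1307-5p level.

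Higher in R273H were miR-3529-3p, miR-1296-3p and miR-1267. miR-3529-3p rose from 12.5 and 3.19 to 22.6 and 27.6 normalised counts (log2 fold change 1.79 ± 0.57, adjusted p = 0.0318). miR-1296-3p, from chr10:65132717-65132808 in an intron of JMJD1C, which encodes a protein of the histone demethylase family, was at 2.08 and 0 in EV and at 7.18 and 4.44 in R273H cells, which gives 1.93 ± 0.72 on the log2 scale (adjusted p = 0.0652). miR-1267, from chr13:108183519-108183596 in an intron of NALF1, was at 2.08 and 0 in EV and at 4.10 and 6.22 in R273H cells, which gives 1.79 ± 0.72 (adjusted p = 0.0864). These are 3 or fewer reads in EV and 4 to 7 in R273H for the last 2, and their call did not survive the removal of the second EV library or of either R273H library. miR-3529-3p also lost its call without any of these 3 libraries, at log2 fold changes of 0.95, 1.93 and 1.65 (unadjusted p = 0.23, 0.132 and 0.177).

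The treated libraries give the same line difference in samples that the untreated comparison did not use. R273H was compared with EV under etoposide with edgeR on the recovered reads of all 8 libraries. Of 31 members tested, 7 met p under 0.05 and 2-fold (22.6%), 2 higher and 5 lower, against 25.4% of 334 miRNAs tested, 10.2% higher and 15.3% lower. At an adjusted p under 0.05, 4 members differed, all lower, against 22.5% of all. The libraries did not overlap for 8 members that were higher and 4 that were lower, against 32.6% and 14.1%. With upper-quartile normalisation, which moved the median of all miRNAs by 0.33 on the log2 scale, 8 members were called, 6 higher and 2 lower. All 9 members called in untreated cells had the same direction under etoposide and 5 of them were called again (55.6%). Not called again were miR-7974 (-0.90 ± 0.55, edgeR, adjusted p = 0.243) and miR-1296-3p (2.18 ± 1.39, adjusted p = 0.278). The same held for miR-1303 (-0.53 ± 0.54, adjusted p = 0.548) and miR-3607-5p (-0.80 ± 0.35, adjusted p = 0.0905). Over all miRNAs, 78 of 82 had the same direction (95.1%) and 52 were called again (63.4%).

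miR-3192-3p was at 93.9 and 38.7 RPM in treated EV cells and is not listed in the table of the R273H libraries alone. Taken as no read in treated R273H cells, it was at least 9.13-fold lower (edgeR, adjusted p = 4.45e-08). miR-3180-3p was at 207 and 60.7 RPM in EV and at 31.6 and 83.1 RPM in R273H, a log2 fold change of -1.50 ± 0.47 (adjusted p = 0.0129). It was -0.88 without the first treated EV library and -1.13 without the first treated R273H library (edgeR, unadjusted p = 0.104 and 0.0684). miR-1307-5p differed by -1.07 ± 0.34 on the log2 scale (adjusted p = 0.0131), and by -0.88, under 2-fold, without the second treated EV library. With upper-quartile normalisation it was at -0.76 (adjusted p = 0.11) and without a filter on low counts at -0.91 (adjusted p = 0.148, both edgeR). This difference was smaller than in untreated cells, but the change in the line difference with etoposide was 0.60 ± 0.47 on the log2 scale (edgeR, unadjusted p = 0.21, adjusted p = 1.0).

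miR-3074-5p, which is encoded on the strand opposite miR-24-1 at chr9:97848296-97848376, was at 225 and 215 RPM in treated EV and at 130.3 and 126 RPM in treated R273H cells. The libraries did not overlap, and the log2 fold change was -1.12 ± 0.38 (adjusted p = 0.023). In untreated cells the same fit gave -1.22 ± 0.38 (adjusted p = 0.0124), while limma on the normalised counts gave -0.85 ± 0.45 (adjusted p = 0.192). Under etoposide the 2-fold call was lost with upper-quartile normalisation (-0.81, adjusted p = 0.0997) and without a filter on low counts (-0.96, adjusted p = 0.169, both edgeR). It was -0.77 without the second treated EV library and -0.84 without the second treated R273H library (edgeR, unadjusted p = 0.0835 and 0.104).

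miR-1267 and miR-3529-3p were again higher in R273H. miR-1267 had 1 read and no read in treated EV and 9 and 10 reads in treated R273H libraries (edgeR log2 fold change 3.08 ± 1.23, adjusted p = 0.0558), and it lost its call without the second treated EV library (2.18, edgeR, unadjusted p = 0.116). miR-3529-3p was at 14.1 and 16.6 RPM in EV and at 63.2 and 48.7 RPM in R273H (1.49 ± 0.64, adjusted p = 0.0828). Without the first treated EV or the first treated R273H library its log2 fold change was 1.11 and 0.95. miR-3184-5p was lower, with 3 and 9 reads in treated EV and 4 and 2 reads in treated R273H libraries (-1.87 ± 0.88, adjusted p = 0.124). It was -0.93 without the second treated EV library and -1.45 without the second treated R273H library, and 0.01 ± 0.97 in untreated cells by the same fit.

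**Figure D2:**
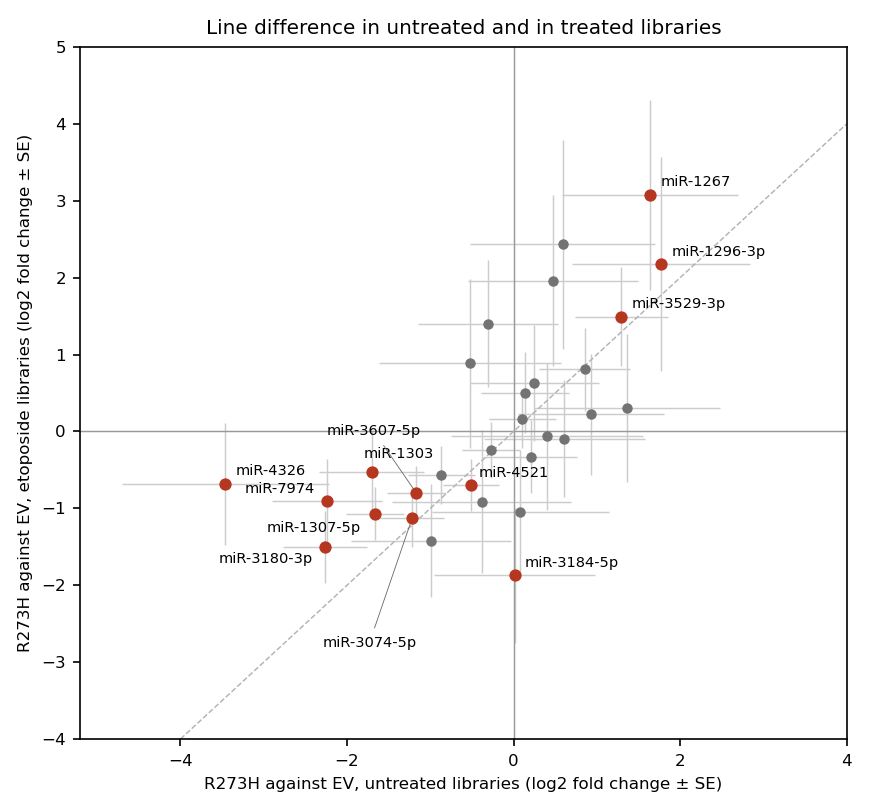
Log2 fold change of R273H against EV for 30 of the 31 members tested, in untreated (horizontal axis) and in etoposide-treated libraries (vertical axis), as fitted by edgeR with SE bars and a dashed line of equality. miR-3192-3p, without a listed read in R273H, is left out. miR-1307-5p, miR-3180-3p, miR-7974 and miR-3074-5p lie below 0 on both axes, and miR-1267, miR-1296-3p and miR-3529-3p lie above 0 on both. Of these, miR-7974 and miR-1296-3p were not called under etoposide.

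When the line difference was averaged over treatment in the same fit, 11 of 31 members were called (3 higher, 8 lower), against 28.7% of the 334 miRNAs tested (13.5% higher, 15.3% lower), and 12 had an adjusted p under 0.05 (2 higher, 10 lower), against 36.8%. This comparison was chosen after the data were seen. With upper-quartile normalisation 6 members were higher and 5 lower. The smallest adjusted p after miR-3192-3p were those of miR-1307-5p (-1.36 ± 0.24, adjusted p = 6.78e-07), miR-3180-3p (-1.88 ± 0.34, 1.65e-06) and miR-3074-5p (-1.17 ± 0.27, 0.000156). Without the first untreated or the second treated EV library, miR-3074-5p was under 2-fold, at -0.74 and -0.99. With upper-quartile normalisation it was at -0.82. miR-3607-5p (-0.98 ± 0.25, 0.000632), under 2-fold, and miR-7974 (-1.57 ± 0.43, 0.0017) followed. Among members with an adjusted p under 0.05, only miR-3529-3p (1.39 ± 0.43, 0.00513) and miR-1267 (2.36 ± 0.82, 0.015) were higher. With 1 library left out, miR-3529-3p ranged from 1.155 without the second to 2.14 without the first untreated EV library. miR-1267 ranged from 1.90 without the second treated EV library to 4.32 without the first untreated EV library, and was at 3.69 without the first treated EV library. The third higher call was miR-1296-3p (1.97, adjusted p = 0.0635), whose unadjusted p passed 0.05 without the second library of either EV group, the first untreated R273H or the second treated R273H library (0.0562 to 0.111). miR-4326 had a log2 fold change of -2.07 ± 0.75 (adjusted p = 0.0202), where the EV libraries held 10, 2, 3 and 8 reads and the R273H libraries 0, 1, 6 and 7. Its unadjusted p rose to 0.103 without the first untreated EV library, to 0.0718 without the second treated EV library and to 0.0517 without the first untreated R273H library. Of the 31 tested members, 4 had RPM values higher in every R273H than in every EV library and 2 had lower ones, against 9.28% and 6.89% of the 334 miRNAs.

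Some members were read in 1 line only. None of them is listed in the other line's own table, so the zeros in that line's treated libraries were assumed. In all 4 EV libraries and no R273H library were miR-3192-3p (65 reads) and miR-4321, with 9, 1, 4 and 2 reads. miR-4321 lies at chr19:2250638-2250717 over an exon of AMH, the gene of anti-Müllerian hormone. In all 4 R273H libraries and no EV library were miR-3157-5p (1, 1, 6 and 6 reads), miR-3179 (4, 2, 3 and 2), miR-3657 (2, 2, 4 and 3), and miR-4653-5p and miR-6876-5p, both with 1 read per library. Over all 945 listed miRNAs this pattern was met by 4 in EV (0.423%) and by 8 in R273H (0.847%), of which 2 and 5 are members. The level of miR-3157-5p, miR-3657, miR-4653-5p and miR-6876-5p reached the threshold only in the table of the R273H libraries, and that of miR-3179 in no table of EV libraries alone, so these counts of members follow in part from how members were chosen and support nothing. Apart from miR-3192-3p, no library held more than 9 reads of any of them. As a description, miR-3157-5p, at 14.5 ± 3.79 RPM (SD, n = 2) in treated R273H cells, was at least 1.30-fold higher than a floor of 3 reads per library in treated EV cells, and no fold is given for the others.

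Few of these miRNAs differed with etoposide. In EV cells, 1 of 24 members tested met p under 0.05 and 2-fold and was higher, against 6.76% of 296 miRNAs (2.36% higher, 4.39% lower). In R273H cells it was 1 of 30, again higher, against 6.16% of 341 miRNAs (2.93% higher, 3.23% lower). The libraries did not overlap for 6 members that were higher and 3 that were lower in EV, against 18.6% and 15.5% of all, and for 6 and 4 in R273H, against 20.5% and 18.8%. No member passed an adjusted p under 0.05 with limma in either line (0.676% of all miRNAs in EV), 2 members in each line had an unadjusted p under 0.05, and DESeq2 called 0 in both lines and edgeR 0 in EV and 1 in R273H. In EV, miR-1301-3p rose from normalised counts of 12.3 and 7.57 to 17.2 and 29.5 (log2 fold change 1.14 ± 0.57, unadjusted p = 0.0469, adjusted p = 0.578, limma). In R273H, miR-1303 rose from 6.65 and 8.27 to 18.96 and 13.4 (1.01 ± 0.42, unadjusted p = 0.0322, adjusted p = 0.495, limma). miR-1301-3p lost its call without either untreated EV library or the second treated one (1.46, 0.83 and 0.77), and miR-1303 without the first untreated R273H library or either treated one (0.87, 0.77 and 1.25).

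miR-3662 was the other member with an unadjusted p under 0.05, in both lines. Its normalised counts were 101 and 107 in untreated and 62.0 and 51.2 in treated EV cells (log2 fold change -0.88 ± 0.40, adjusted p = 0.44, limma), and 156 and 118 in untreated and 65.1 and 83.2 in treated R273H cells (-0.87 ± 0.32, adjusted p = 0.472, limma). In RPM the treated and untreated libraries overlapped, with 292 and 284 against 305 and 144 in EV, and 259 and 246 against 156 and 321 in R273H.

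Whether the response to etoposide differed between the lines was tested as an interaction with edgeR. None of the 31 members had a p under 0.05, against 3.59% of 334 miRNAs that met p under 0.05 and 2-fold (0.898% higher, 2.69% lower), and none of those passed adjustment. DESeq2 also called 0 members. The interaction had an SE of 0.47 for miR-1307-5p and of 0.87 for miR-7974, and of 1.60 for miR-1296-3p and 1.80 for miR-1267, which had few reads. For members as low as these last ones, differences well above 4-fold could go undetected at this depth.

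Both arms of 9 hairpins were among the members, and the 8 with the highest levels are described. The 5p arm of miR-1307 took 90.9% of its 5211 reads (95% Wilson interval 90.1% to 91.7%; intervals cover counting error only). Its share was 92.6% and 97.3% in untreated EV, 87.1% and 92.6% in treated EV, 90.9% and 91.4% in untreated R273H, and 87.3% and 85.9% in treated R273H libraries. The lines overlapped. miR-1307-3p had a line difference of -0.72 ± 0.28 on the log2 scale averaged over treatment (edgeR, adjusted p = 0.0314), less than 2-fold, beside -1.36 ± 0.24 for miR-1307-5p. Whether the arms differ in this was not tested.

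The 5p arm also led for miR-3074, with 95.1% of 550 reads, and miR-2355, with 64.9% of 77 reads (53.8% to 74.7%). The 3p arm led for miR-3180, whose 5p share was 16.5% of 261 reads, miR-1285 (26.1% of 215), miR-3613 (27.3% of 33) and miR-1304 (2.55% of 157 reads, 0.995% to 6.37%). For miR-2682, 54.2% of 24 reads lay on the 5p arm, with an interval of 35.1% to 72.1% that includes equal use. The miR-1285 share stayed between 22.2% and 30.8% in the 8 libraries.

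The 4 members of the list of hairpins opposite an older miRNA were miR-3529-3p, both arms of miR-3074 and miR-3065-3p. Of these, 2 were tested in untreated cells and 1 was called, higher in R273H, against 27.3% of all miRNAs called (16.4% higher). Under etoposide 3 were tested, of which 1 was called higher and 1 lower, against 25.4% of all, and averaged over treatment the counts were the same, against 28.7%. Lists this small allow no reading of these shares. A hairpin and its opposite-strand partner give mature RNAs that are reverse complements of each other, as these pairs show, with the complementary run in capitals.
miR-3529-3p: AACAACAAAAUCACUAGUCUUCCA
miR-7-5p: UGGAAGACUAGUGAUUUUGUUGUU
miR-3074-5p: GUUCCUGCUGAACUGAGCCAg
miR-24-3p: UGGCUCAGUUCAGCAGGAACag
miR-3184-5p: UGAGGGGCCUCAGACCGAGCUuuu
miR-423-3p: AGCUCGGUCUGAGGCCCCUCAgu
The runs are 24, 20 and 21 bases long. Reads of such a pair can be told apart only if the strand was kept in alignment, for which no setting is given in the sources used here. miR-3184 was not on that list and was found by a search for complementary runs of at least 14 bases between members and all listed miRNAs.

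miR-3529-3p had 131 reads and miR-7-5p, a conserved miRNA that targets EGFR mRNA, had 9650. miR-3529-3p amounted to 12.7, 2.61, 5.47 and 6.77 reads per 1000 miR-7-5p reads in the 4 EV libraries and to 16.9, 16.9, 19.8 and 13.2 in the 4 R273H libraries. Every R273H library was above every EV library in this ratio, but the nearest ones rested on few reads. These were 18 beside 1414 in the first untreated EV library and 17 beside 1288 in the second treated R273H library. miR-7-5p itself differed between the lines by 0.17 ± 0.24 on the log2 scale (edgeR, averaged over treatment, adjusted p = 0.609), against 1.39 ± 0.43 for miR-3529-3p. miR-7-1-3p is the 3p arm of a miR-7 hairpin, but whether miR-3529 lies opposite that hairpin was not established here. miR-7-1-3p was higher in R273H by 0.69 ± 0.26 (edgeR, averaged over treatment, adjusted p = 0.0289). In untreated cells it was at 0.55 ± 0.40 (limma, adjusted p = 0.348). The differences between these folds were not tested.

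miR-3074-5p had 523 reads and miR-24-3p 88474. The ratio was 8.76, 4.22, 6.03 and 5.84 reads per 1000 in EV and 5.61, 4.45, 4.72 and 4.69 per 1000 in R273H, and the lines overlapped. miR-24-3p had a line difference of -0.78 ± 0.28 on the log2 scale (edgeR, averaged over treatment, adjusted p = 0.0202), beside -1.17 ± 0.27 for miR-3074-5p. miR-3184-5p had 35 reads beside 728 of miR-423-3p, and its ratio ranged from 34.5 to 102 per 1000 in EV and from 17.4 to 115 per 1000 in R273H.

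**Figure D3:**
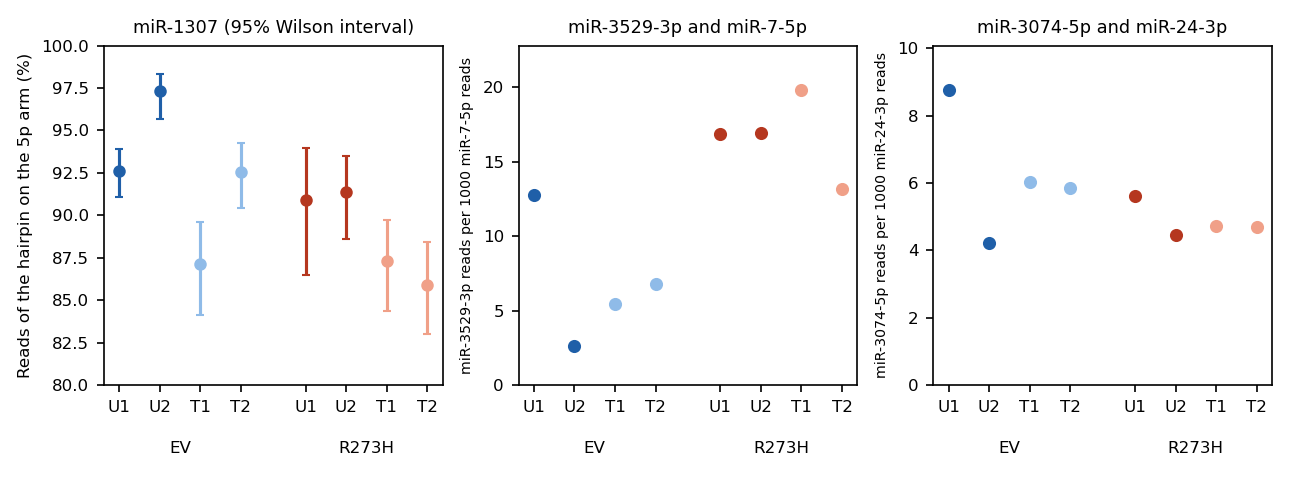
Left, share of miR-1307 reads on the 5p arm in each library with 95% Wilson intervals (the axis starts at 80%). Middle and right, reads of miR-3529-3p per 1000 reads of miR-7-5p and of miR-3074-5p per 1000 reads of miR-24-3p (untreated, U; etoposide, T). The middle ratio was 13.2 or more in R273H and 12.7 or less in EV, and these nearest libraries held 17 and 18 miR-3529-3p reads. The right ratio overlapped between the lines.

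Of the 16 listed entries known to overlap other non-coding RNA or repeats, 9 were members. In untreated cells 4 were tested and 2 were called, miR-3607-5p and miR-1303, both lower in R273H as described above, against 27.3% of all miRNAs called (10.9% lower). The median log2 fold change over the 4 was -0.58, beside 0.10 over all miRNAs. miR-1285-3p (0.28 ± 0.49, adjusted p = 0.751) and miR-1285-5p (0.31 ± 0.58, adjusted p = 0.751) did not pass. Under etoposide 0 of 4 were called between the lines by edgeR, 1 of them (miR-3607-5p, -0.80 ± 0.35) having an unadjusted p under 0.05, against 25.4% of all miRNAs called. Averaged over treatment 1 of 4 was called, miR-1303 (-1.12 ± 0.42, edgeR, adjusted p = 0.0243), against 28.7%. Together these entries took 0.0179% to 0.124% of miRNA reads, and 0.00730% to 0.0227% without miR-3607-5p. That miRNA held 607 of their 666 reads in the first untreated EV library but 48 of 81 in the first untreated R273H library. The rest were low, with 22 reads of the tRNA-like miR-4454, 21 of miR-4485, which lies in a mitochondrial rRNA, 17 and 6 of the miR-1273 entries and 6 of miR-5096 in all libraries.

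None of the 5 listed mirtrons, which are hairpins made by splicing of short introns, reached the level of a member, with 8 reads in all, whereas the older mirtron miR-877-5p had 202. The 5p arm of miR-1271, which shares its seed with miR-96-5p and miR-182-5p, was not listed, beside 1886 and 3447 reads of those older miRNAs. The listed miR-1271 entry, which is not that arm, had 1 read in all.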

How the data were processed

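Small RNA libraries of 4 groups with 2 libraries each were analysed. The authors trimmed reads to 17 to 35 bases and used SHRiMP against miRBase 20 plus adapter, rRNA and tRNA sequences. They placed the remainder on GRCh37 (hg19 per the labels) by Novoalign, counted them per feature and normalised with DESeq. Their minimum of 3 reads applied to differential expression, and the deposited values also hold miRNAs under it. Versions, strand setting and handling of multiple alignments are not given in the sources used here. The deposited signal is the number of reads over the library's size factor, with 2 decimals, in 3 separately normalised tables. All values (100%) were whole multiples of 1 read within rounding, so reads were recovered. The columns of the table of both lines carry no treatment mark and were taken as the untreated libraries. The deposited tables of comparisons hold the authors' fold changes and p-values and were not used.

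Within a table, limma 3.58.1 (R 4.3.3; intensity trend) was run on log2(normalised count + 1) of miRNAs with a mean of at least 3, and p-values were Benjamini-Hochberg adjusted over all of them. The pseudocount understates folds of low miRNAs. Comparisons across tables used the quasi-likelihood test of edgeR 4.0.16 (TMM) on recovered reads, fitted over 8 libraries together, with miRNAs at a mean of at least 3 reads and the SE taken from the fold and its F statistic. DESeq2 1.42.0 was an alternative. The other alternatives were pseudocounts of 0.5 and 5, no filter or a mean of at least 10, equal upper quartiles, limma without the trend, all features in the fit, a block for the replicate number and leaving out each library. On simulated reads of R273H against EV, limma called 92.9% of changed and 2.36% of unchanged miRNAs (325 tested), edgeR 98.5% and 0%, and DESeq2 98.0% and 0% (330 tested). Every changed miRNA was moved by more than the 2-fold threshold, with 1 spread for all miRNAs. limma was given the untreated libraries only, and edgeR and DESeq2 all 8, averaged over treatment. These rates therefore give neither the power for 2-fold changes nor a comparison of the tools.

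Named are the 10 members with the highest mean RPM, up to 6 higher and 6 lower called members per comparison by p-value, hairpins with both arms (the 8 highest), members of the fixed lists, those beside the level threshold and those read in all libraries of 1 line only. Added after their values were seen were miR-1307-3p, miR-3662 and miR-4326 in the averaged or etoposide comparisons and miR-3184-5p with miR-423-3p. The folds of miR-7-5p, miR-7-1-3p and miR-24-3p were also added then. Members and lists were chosen with earlier results of these data known. Fold bounds use a floor of 3 reads per library. Mature sequences (62 of 79 members matched) are from RefSeq, and hairpin positions (49 members) from the GRCh37 version of GENCODE 44. Scripts ran under Python 3.11.15 with scipy 1.17.1, matplotlib 3.10.9, pandas 2.3.3 and numpy 2.4.6.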

Additional observations from a re-analysis of the deposited data

How the results depend on the processing

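The number of members called in untreated R273H against EV was 9, and 19 (7 higher, 12 lower) without a filter and 5 (0 higher, 5 lower) with DESeq2, and 3 to 11 with a library left out. It was 3 without the first and 4 without the second untreated R273H library, with 0 higher in both. For etoposide in EV the count of 1 became 0 with a pseudocount of 5, a mean of at least 10, equal upper quartiles, the replicate block, edgeR or DESeq2, and 2 in limma without the trend, and ranged from 0 to 2 over left-out libraries (0 without the second untreated, 2 without either treated library). For etoposide in R273H the count of 1 became 0 with a pseudocount of 5, equal upper quartiles or DESeq2, 2 with a pseudocount of 0.5 or without the trend, and 5 (4 higher, 1 lower) without a filter, with 1 to 5 over left-out libraries (5 without the second untreated, 2 without the first treated library). For R273H against EV under etoposide, 7 became 4 with DESeq2 (0 higher, 4 lower) or with a mean of at least 10 reads (1 higher, 3 lower), and 12 without a filter (7 higher, 5 lower), with 5 to 8 over left-out libraries. Averaged over treatment, 11 became 6 with a mean of at least 10 reads and 21 without a filter, with 8 to 12 over left-out libraries. The interaction gave 4 members without a filter and 0 to 2 over left-out libraries, 2 without the second treated EV or the second untreated R273H library and 1 without the second untreated or the first treated EV library. Filters change which miRNAs are tested, and for the other settings the cause was not tested. The difference in member share was -0.183 points for members at a mean of at least 3, -0.154 of all counted reads and -0.147 without entries overlapping other RNA, each with the same sign.

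Of 27 named log2 fold changes, none changed sign under 189 alternative values or 172 with a library left out, and 27 and 37 of these values no longer had p under 0.05. These folds were named because they were called, so a change of sign was unlikely from the start. In limma, the filter, the trend, the features in the fit and the replicate block leave a fold unchanged. Under etoposide, leaving out an untreated library moves a fold by little. The constant sign therefore supports little. Whether same-numbered libraries were handled together is not given in the sources used here. Their deviations had correlations of -0.0269, 0.0374 and -0.0825 over miRNAs, which cannot settle this. With the replicate block, 7 members were called in untreated cells, of which 0 passed adjustment, 5 under etoposide (1 higher, 4 lower), 11 averaged over treatment, 1 for etoposide in R273H and 0 for the interaction.

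Depth is 1 limit. With 1.86 to 4.70 RPM per read, 46 of 79 members lay under the chosen minimum mean of 3 and were left out of the tests, and a zero allows up to 5.59 to 14.1 RPM in a library. With a library left out, the single library remaining in its group is assumed to vary like the others.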

Other observations

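The 62 members with a RefSeq sequence were 20 to 25 bases long with a median of 22, the same median as for the 333 older miRNAs at a mean of at least 1. Their median GC content was 54.6%, against 47.6% for the older miRNAs, and 41.9% and 39.3% began with U. These are descriptions without a test, since levels chose the members. A seed shared with another listed miRNA that had a matched sequence was found for 5 members. miR-2682-5p shares it with miR-34b-5p and miR-449c-5p, miR-3619-5p with miR-214-3p, miR-3184-5p with miR-423-5p, miR-4676-3p with miR-452-5p, and miR-1285-3p with miR-3187-5p. miR-2682-5p had 13 reads in all libraries, whereas miR-34b-5p had 803. miR-3619-5p had 42 reads and miR-214-3p 2.

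Of the 49 members with a GRCh37 position, 28 lie in an intron and 11 over an exon of a gene on the same strand, 6 only opposite another gene, and 4 outside other genes. The mature RNA of 7 members is encoded by several hairpins, miR-3179 by 4, and reads of such copies cannot be told apart.

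miR-1304-3p was read at 31.7, 24.0, 51.6 and 22.1 RPM in the EV libraries and at 59.8, 49.2, 75.0 and 74.5 RPM in the R273H libraries, which overlapped. It was at 1.00 ± 0.50 on the log2 scale in untreated cells (limma, adjusted p = 0.164). miR-3613-3p was at 5.59, 4.003, 4.69 and 0 RPM in EV and at 6.64, 9.83, 17.8 and 8.599 RPM in R273H, without overlap, with a log2 difference of 1.51 ± 0.89 averaged over treatment (edgeR, adjusted p = 0.188).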
